A study of Mus musculus with 9 samples.

Results

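Superoxide dismutases, catalase and glutathione peroxidases were followed here as 8 genes, Sod1, Sod2, Sod3, Cat, Gpx1, Gpx3, Gpx7 and Gpx8, chosen by gene name from the 29756 entries of the deposited expression table. All 8 had an entry. The cells were HT22, a mouse neuronal line of hippocampal origin that was immortalised, and mRNA was sequenced in 9 libraries: 3 libraries of the experimental group (A), 3 of the intervention group (B) and 3 of the control group (C). Hemin, which is heme with its iron oxidised, and a bioactive micelle, PPP8, appear in the title of the series, but no label ties either agent, a dose or a time to a group. The 3 groups, all of the same line, are therefore called by their label names. The replicates are not said to be separate cultures, and the spread behind each p-value may be technical.

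These enzymes work in sequence. Superoxide dismutases turn superoxide into hydrogen peroxide. Catalase, a heme enzyme of peroxisomes, splits hydrogen peroxide into water and oxygen, and glutathione peroxidases reduce it with glutathione. The family members differ mainly in where they act: Sod1 encodes the copper and zinc enzyme of the cytosol, Sod2 the manganese enzyme of the mitochondrial matrix, and Sod3 a secreted copper and zinc enzyme. Gpx1 encodes the main cytosolic glutathione peroxidase and Gpx3 the secreted one, both selenoproteins, while the enzymes of Gpx7 and Gpx8 act in the endoplasmic reticulum and carry cysteine in place of selenocysteine.

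The genes did not move as a block. Against control cells, experimental cells held more Sod1, Sod2 and Cat mRNA and less Sod3 and Gpx8 mRNA, and intervention cells showed the same division. Sod1 stood at 43.9 ± 2.45 FPKM in experimental and 46.9 ± 3.80 FPKM in intervention cells, against 24.6 ± 1.77 FPKM in control cells (SD, n = 3 each). Gpx8 was the member called between intervention and experimental cells, at 31.4 ± 3.70 FPKM in intervention cells and 23.9 ± 2.11 FPKM in experimental cells, a call lost under 3 of the other settings and without any 1 of 4 libraries. FPKM counts fragments per length of the gene and per size of the library, so that levels of different genes can be compared. In bulk RNA, fewer cells that express a gene and less of its RNA per cell cannot be told apart.

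Promoter sequences are shown for 3 of the genes, Sod1 and Cat as genes that were higher in experimental and intervention cells and Gpx8 as a gene that was lower. RefSeq on GRCm38.p6, the assembly of mm10, gave a promoter for 7 of the 8 members, all but Sod3. Each line below holds the 250 bases before the start that RefSeq annotates, on the gene's own strand, 5′ to 3′; by the GENCODE M21 starts, the last 8 bases of the Sod1 window, 7 of the Cat window and 22 of the Gpx8 window lie inside the gene. Capitals mark GC boxes (GGGCGG or its complement CCGCCC), and in Sod1 also the core of the antioxidant response element, the site bound by NRF2 (TGACNNNGC on either strand), here on the opposite strand.
Sod1, chr16:90220512-90220761, plus strand: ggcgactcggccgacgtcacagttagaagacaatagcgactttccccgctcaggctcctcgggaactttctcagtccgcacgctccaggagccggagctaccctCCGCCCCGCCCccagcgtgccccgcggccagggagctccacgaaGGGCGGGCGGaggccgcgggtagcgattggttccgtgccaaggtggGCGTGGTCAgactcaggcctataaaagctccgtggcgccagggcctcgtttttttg
Cat, chr2:103485154-103485403, minus strand: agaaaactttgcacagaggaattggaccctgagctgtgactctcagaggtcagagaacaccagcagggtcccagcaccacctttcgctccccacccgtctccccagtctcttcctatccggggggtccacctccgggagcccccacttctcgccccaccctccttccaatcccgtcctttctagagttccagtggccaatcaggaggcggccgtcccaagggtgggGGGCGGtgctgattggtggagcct
Gpx8, chr13:113046389-113046638, minus strand: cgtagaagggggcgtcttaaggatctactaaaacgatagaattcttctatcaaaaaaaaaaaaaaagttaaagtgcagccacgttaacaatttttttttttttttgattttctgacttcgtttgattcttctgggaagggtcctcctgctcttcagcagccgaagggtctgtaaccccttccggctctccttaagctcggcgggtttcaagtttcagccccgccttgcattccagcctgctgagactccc

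The Sod1 window held 4 GC boxes, 1 antioxidant response element core, 1 CCAAT box and 1 TATA box (TATAAA), with overlapping GC boxes counted singly. Cat held 1 GC box and 4 CCAAT boxes, and the Gpx8 window held none of the motifs searched. Among 27025 RefSeq promoters of the same length, 32.9% had a GC box, 34.5% a CCAAT box, 13% a TATA box, 10.1% the antioxidant response element core and 6.87% an AP-1 site (TGANTCA), all searched on both strands, and no window of the 7 members had an AP-1 site. The windows of the other 6 members held no antioxidant response element core, but they are not alike in place. By the GENCODE starts, the windows of Sod2 and Gpx3 lie inside the gene, as do nearly all of the Gpx7 window and most of the Gpx1 window. Guanine and cytosine made up 66.4% of the Sod1 window, 62% of the Cat window and 44.8% of the Gpx8 window, against a median of 52% over all promoters. A match of letters is no evidence of binding, and a window without them says only that they are not in these bases.

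FPKM summed to 332864 to 338823 in experimental, 336987 to 339943 in intervention and 316912 to 327127 in control libraries, and the depth in reads is unknown. Values were tested as log2(FPKM + 1) with limma over the 11974 entries that reached 1 FPKM in at least 3 libraries, and an entry was called when its p, adjusted by the Benjamini-Hochberg method, was under 0.05. Most genes moved against control, and the split of directions depends on the scaling: experimental against control gave 2809 higher and 6047 lower entries as deposited but 4321 and 4399 after median-ratio scaling, and 4172 and 4432 after quantile normalization. Scaled to TPM, the split stayed uneven, at 2495 higher and 6444 lower. The median difference of all tested entries was -0.21 log2 units for experimental minus control, 0.10 for intervention minus experimental and -0.10 for intervention minus control. Of 15 neuronal markers, 4 reached 1 FPKM in any library (Tubb3, Snap25, Dlg4 and Camk2a), so that neuronal character rests on few of them. The hippocampal origin of the line was not tested. The sum of all 15 was 13.8 to 13.9 FPKM in experimental, 9.89 to 12.4 FPKM in intervention and 13.2 to 18.2 FPKM in control libraries. Summed markers of red blood cells, which are rich in catalase, were 0.54 to 2.14 FPKM in experimental libraries, 1.06 to 3.11 FPKM in intervention libraries and 0.99 to 3.58 FPKM in control libraries, and Hbb-bs, a globin gene, alone of the 9 with an entry reached 1 FPKM. Of 7 endothelial markers, 0 reached 1 FPKM, with sums of 0.34 to 0.62 in experimental, 0.32 to 0.39 in intervention and 0.1 to 0.31 FPKM in control libraries. Other marker sums moved with the groups: microglia and macrophage markers (2 of 11, Tmem119 and Cd68, reached 1 FPKM) were 2.67 to 3.93, 3.41 to 4.63 and 11.3 to 12.6 FPKM in experimental, intervention and control libraries. In the same order, oligodendrocyte markers (2 of 8, Pdgfra and Cspg4) were 16.8 to 16.9, 16.3 to 17.0 and 29.1 to 36.4 FPKM, and astrocyte markers (3 of 8, Slc1a3, Gja1 and Sox9) 29.1 to 30.8, 26.5 to 27.7 and 31.3 to 40.5 FPKM. The microglia and astrocyte sums hide markers that went opposite ways in both comparisons with control, in the values as deposited. Of the 2 tested microglia and macrophage markers 1 was called higher and 1 lower. Of the 3 tested astrocyte markers 1 was higher and 2 lower, and of the 2 tested oligodendrocyte markers 0 were higher and 2 lower. No marker with an entry was at 0 in all 9 libraries, and the part of other cell types in the results was not tested.

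The members' levels over the 9 libraries ranged widely. Sod1 averaged 38.5 FPKM, Gpx1 36.0, Gpx8 32.2 and Cat 30.6, above 87.6% to 90.7% of tested entries. Sod2 averaged 7.44 and Sod3 6.31 FPKM, above 50.9% and 45.9% of tested entries. Gpx7 averaged 1.03 FPKM, above 4.47%. Gpx3 was listed at 0 in all 3 experimental and all 3 intervention libraries and at 0.06, 0 and 0.12 FPKM in the control libraries, so that it did not pass the filter and was not tested.

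**Figure D1:**
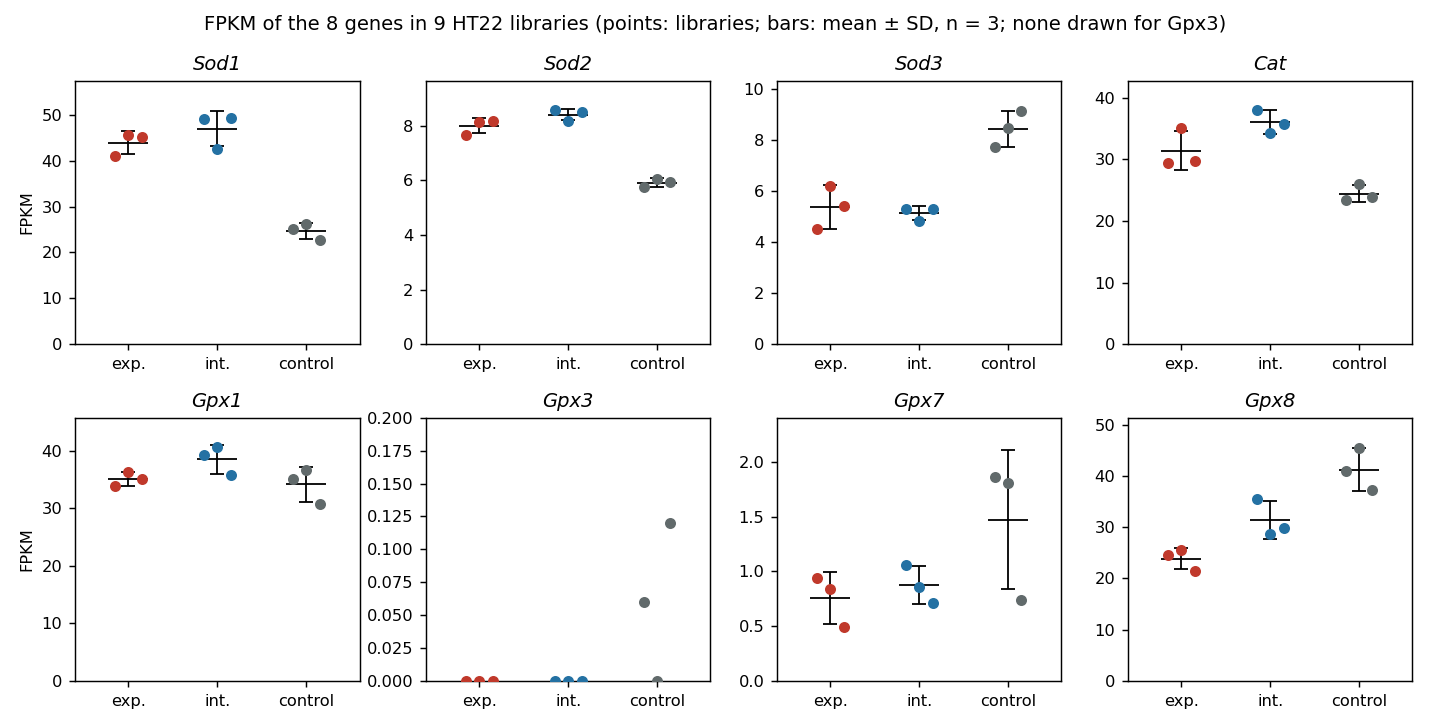
FPKM of the 8 genes in each of the 9 libraries, from 0 on each axis, with experimental (exp.), intervention (int.) and control libraries from left to right; points are libraries and bars are means ± SD (n = 3), left out for Gpx3. For Sod1, Sod2 and Cat all experimental and intervention points lie above the control points, and for Sod3 and Gpx8 all lie below them.

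The first comparison set experimental against control cells. Of the 8 members, 7 were tested; 3 were higher, 3 lower and 1 not called, in a comparison where 74% of all tested entries were called, 23.5% as higher and 50.5% as lower. The members' median difference was 0.043 log2 units beside -0.21 for all tested entries. The groups did not overlap for 5 of the 7, 3 higher and 2 lower, beside 76.2% of tested entries (24.7% higher and 51.5% lower), so the count of called members is near the background and the members' own values carry the description. Sod1, Sod2 and Cat were higher, Sod3, Gpx8 and, less firmly, Gpx7 were lower, and Gpx1 differed by less than the spread between libraries.

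Sod1 (ENSMUSG00000022982.10, chromosome 16, 90220754 to 90226329, plus strand of mm10, GENCODE M21) had 41.09, 45.50 and 45.14 FPKM in experimental libraries, against 25.04, 26.09 and 22.64 FPKM in control libraries. Each experimental value exceeded every control value by a wide margin. The ratio of means was 1.79 and the log2 difference 0.81 (SE 0.074, limma adjusted p = 4.6e-06), larger than that of 94.7% of tested entries. Sod1 has a near-identical copy: the transcript of the predicted gene Gm8566 matches 298 bases of Sod1 at 98% identity, and how reads were split between them is not given in the sources used here. Gm8566 was listed at 6.39 ± 0.21 FPKM in experimental and 4.55 ± 1.083 FPKM in control libraries, and it was called as higher too (log2 difference 0.43, limma adjusted p = 0.0353). Sod1 also overlaps Scaf4 on the opposite strand, with no exons in common.

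Sod2 (ENSMUSG00000006818.5, chromosome 17, 13006846 to 13040063, plus strand) had 7.68, 8.15 and 8.19 FPKM in experimental libraries, against 5.74, 6.06 and 5.94 FPKM in control libraries. The groups were well apart and their spread was narrow, with a coefficient of variation of 3.54% in experimental and 2.73% in control libraries. The log2 difference was 0.38 (SE 0.050, limma adjusted p = 5.81e-05). Sod3 (ENSMUSG00000072941.5, chromosome 5, 52363791 to 52371418, plus strand) had 4.51, 6.20 and 5.40 FPKM in experimental libraries, against 7.72, 8.46 and 9.12 FPKM in control libraries. Every experimental value was the lower, and the log2 difference was -0.57 (SE 0.096, limma adjusted p = 0.000328). The secreted enzyme's mRNA thus differed in the opposite direction from those of the cytosolic and mitochondrial enzymes.

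Cat (ENSMUSG00000027187.10, chromosome 2, 103453849 to 103485160, minus strand) had 29.43, 35.04 and 29.70 FPKM in experimental libraries, against 23.36, 25.97 and 23.91 FPKM in control libraries. Experimental replicate 2 stood above the other experimental libraries, and the groups did not overlap. The ratio of means was 1.29 and the log2 difference 0.35 (SE 0.074, limma adjusted p = 0.00171).

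Gpx1 (ENSMUSG00000063856.7, chromosome 9, 108338903 to 108340343, plus strand) had 33.96, 36.43 and 35.21 FPKM in experimental libraries and 35.09, 36.76 and 30.79 FPKM in control libraries, which overlapped. The log2 difference was 0.043 (95% interval -0.12 to 0.20, limma adjusted p = 0.603). Gpx1 was called as higher after median-ratio scaling (0.28, adjusted p = 0.00399), but not after quantile normalization (0.089, adjusted p = 0.265) or scaled to TPM (-0.0201, adjusted p = 0.807). Gpx8 (ENSMUSG00000021760.5, chromosome 13, 113042753 to 113046410, minus strand) had 24.48, 25.63 and 21.54 FPKM in experimental libraries, against 40.97, 45.50 and 37.31 FPKM in control libraries. All experimental values lay below all control values, with a log2 difference of -0.76 (SE 0.098, limma adjusted p = 5.18e-05); 16.2% of tested entries had a lower one. Gpx8 overlaps Cdc20b on the opposite strand, with no exons in common. Gpx7 (ENSMUSG00000028597.11, chromosome 4, 108400390 to 108406961, minus strand) had 0.94, 0.84 and 0.49 FPKM in experimental libraries and 1.86, 1.81 and 0.74 FPKM in control libraries. Control replicate 3 fell among the experimental values. Gpx7 passed the filter through control replicates 1 and 2 and intervention replicate 1, and no experimental library reached 1 FPKM. Its place in the test thus rests mainly on the group where it was highest. The log2 difference was -0.46 (SE 0.19, limma adjusted p = 0.0455), but median-ratio scaling gave an adjusted p of 0.117, quantile normalization 0.207, a test of unfiltered entries 0.127, a pseudocount of 0.1 0.0552, and a fit of these groups alone 0.0676. Leaving out 1 library at a time, the call was lost for all but experimental replicate 1 (adjusted p = 0.0477) and control replicate 3 (0.00121), with 0.0531 to 0.16 for the other 7.

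**Figure D2:**
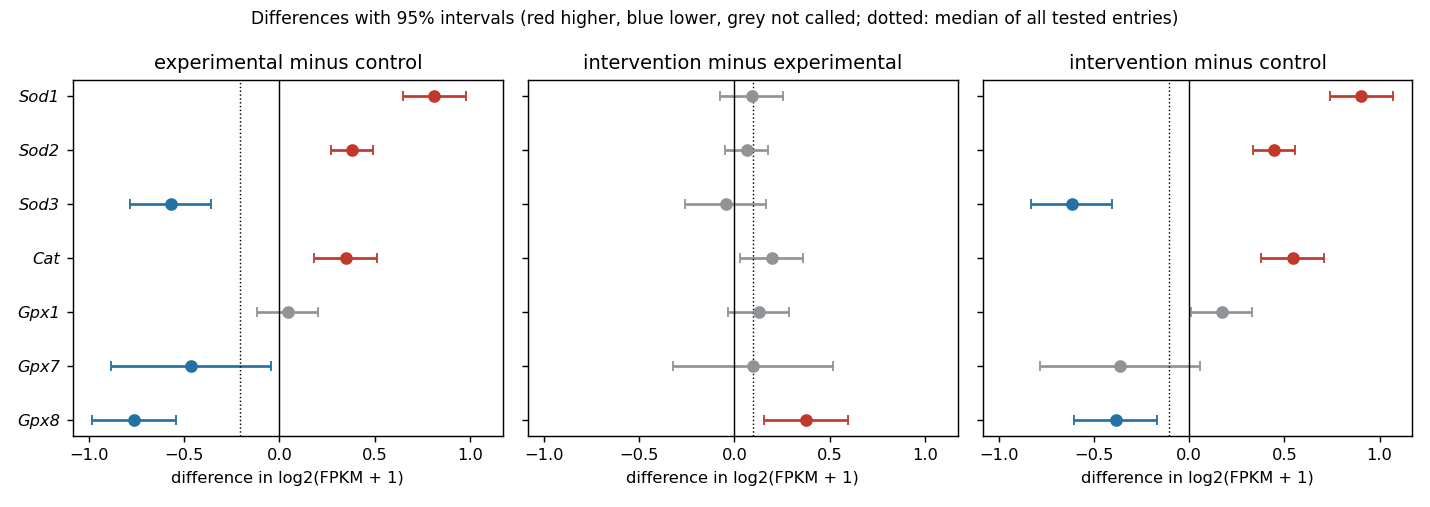
Differences in log2(FPKM + 1) of the 7 tested genes for experimental minus control, intervention minus experimental and intervention minus control, with 95% intervals; red genes were called higher, blue lower and grey not called, and the dotted line is the median of all tested entries. Sod1, Sod2 and Cat lie right of 0 and Sod3 and Gpx8 left of it in both comparisons with control.

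Intervention cells were next set against experimental cells. Of the 7 tested members 1 was higher, 0 were lower and 6 were not called, where limma called 19.5% of tested entries, 15.9% as higher and 3.6% as lower, and 2 members had an unadjusted p under 0.05, both higher. That split of all entries, 1906 higher and 431 lower, turned to 645 and 792 after median-ratio scaling and to 451 and 587 after quantile normalization. Scaled to TPM, it stayed uneven at 1535 and 414. The groups did not overlap for 1 of the 7 members, beside 42.5% of tested entries (33.7% higher and 8.79% lower), and the members' median difference was 0.10 log2 units, as for all entries. Gpx8 had 35.59, 28.69 and 29.83 FPKM in intervention libraries, against 24.48, 25.63 and 21.54 FPKM in experimental libraries. Intervention replicate 1 was the highest, and even the lowest intervention value exceeded the experimental ones. The ratio of means was 1.31 and the log2 difference 0.38 (SE 0.098, limma adjusted p = 0.0299), larger than that of 95.2% of tested entries. Median-ratio scaling ended the call (0.28, adjusted p = 0.0726), as did quantile normalization (adjusted p = 0.0575) and testing unfiltered entries (0.0946). It was also lost when experimental replicate 1 (0.0819), experimental replicate 3 (0.108), intervention replicate 1 (0.106) or intervention replicate 3 (0.058) was left out.

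Cat had 38.05, 34.25 and 35.79 FPKM in intervention libraries and 29.43, 35.04 and 29.70 FPKM in experimental libraries. The groups overlapped through experimental replicate 2, and the log2 difference of 0.20 (95% interval 0.03 to 0.36) was not called (limma adjusted p = 0.0856), except without that library (0.28, adjusted p = 0.0213). For the 3 superoxide dismutases the differences were near 0. Sod1 had 49.03, 42.53 and 49.19 FPKM in intervention libraries, a difference of 0.092 log2 units from experimental cells (95% interval -0.07 to 0.26). Sod2 had 8.57, 8.18 and 8.49 FPKM in intervention libraries (difference 0.064, 95% interval -0.048 to 0.18). Sod3 had 5.29, 4.84 and 5.29 FPKM (difference -0.045, 95% interval -0.26 to 0.17). None of these 3 intervals reached the sizes seen against control, although a p that misses the threshold does not show equal levels. Gpx1 had 39.31, 40.67 and 35.78 FPKM in intervention libraries (difference 0.13, 95% interval -0.03 to 0.29), and Gpx7 1.06, 0.86 and 0.71 FPKM (difference 0.10, 95% interval -0.32 to 0.52).

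Intervention against control gave 3 members higher, 2 lower and 2 not called of 7, where 65.3% of all tested entries were called, 24.1% as higher and 41.1% as lower. All entries split into 2890 higher and 4926 lower as deposited, into 3999 and 3787 after median-ratio scaling and into 3798 and 3913 after quantile normalization. Scaled to TPM, the split was 2373 and 5575. This comparison shares its libraries with the comparisons above, so its values are given beside them and not as separate support. The intervention libraries' FPKM given above lay wholly above the control libraries' for Sod1, Sod2 and Cat and wholly below for Sod3 and Gpx8, which is 5 of 7 members beside 68.7% of tested entries (25.8% higher and 42.9% lower). The members' median difference was 0.17 log2 units beside -0.10 for all entries. The log2 difference was 0.90 for Sod1 (SE 0.074, limma adjusted p = 3.98e-06), 0.45 for Sod2 (SE 0.050, adjusted p = 3.08e-05) and 0.54 for Cat (SE 0.074, adjusted p = 0.000119). It was -0.62 for Sod3 (SE 0.096, limma adjusted p = 0.000272) and -0.39 for Gpx8 (SE 0.098, adjusted p = 0.00583). Gpx1, at 38.6 ± 2.52 FPKM in intervention and 34.2 ± 3.08 FPKM in control cells, was not called (difference 0.17, adjusted p = 0.0586) but was after median-ratio scaling (0.31, adjusted p = 0.00257), without intervention replicate 3 (adjusted p = 0.03) or control replicate 2 (adjusted p = 0.0246), and with the replicate number as a block (0.034). Gpx7, at 0.877 ± 0.176 FPKM in intervention and 1.47 ± 0.633 FPKM in control cells, was not called (difference -0.36, adjusted p = 0.113), but was without control replicate 3 (-0.60, adjusted p = 0.00383) and with the replicate block (0.0284).

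By group means, Gpx8 stood in the order experimental, intervention, control from low to high, and each neighbouring pair was called in the values as deposited. Sod1, Sod2 and Cat stood in the order control, experimental, intervention, where the lower pair was called and the upper pair was not. Sod3 stood in the order intervention, experimental, control, where experimental and intervention were not told apart. Gpx1 stood in the order control, experimental, intervention and Gpx7 in the order experimental, intervention, control, and no neighbouring pair of either was called in the values as deposited.

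Ratios between members of the same library are the same under any scaling by 1 factor per library, which quantile normalization is not: it moved experimental minus control to 0.86 for Sod1 and to -0.33 for Sod3. The ratios below are of FPKM as deposited. Sod1 mRNA was 8.27 ± 0.889 times Sod3 mRNA in experimental and 9.12 ± 0.287 times in intervention libraries, against 2.94 ± 0.402 times in control libraries (SD, n = 3 each). The Sod1 share of the summed FPKM of the 3 superoxide dismutases was 76.0% to 77.1% in experimental and 76.6% to 78.1% in intervention libraries, against 60.1% to 65.0% in control libraries, and the Sod3 share was 8.47% to 10.4%, 8.40% to 8.71% and 20.1% to 24.2%, in that order of groups. The Sod2 share was 13.6% to 14.4% in experimental, 13.5% to 14.7% in intervention and 14.9% to 15.8% in control libraries, a much narrower span. The summed FPKM of the 3 genes was 57.3 ± 3.51 in experimental and 60.5 ± 4.26 in intervention libraries, against 38.9 ± 1.503 in control libraries.

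The ratio of Sod1 to Cat, Gpx1 and Gpx8, members whose products remove peroxide, was higher as well. Its ratio to Cat was 1.30 to 1.52 in experimental and 1.24 to 1.37 in intervention libraries, against 0.947 to 1.07 in control libraries, and its ratio to Gpx1 was 1.21 to 1.28, 1.046 to 1.38 and 0.710 to 0.735 in the same order of groups. The ratio of Gpx1 to Gpx8 was 1.39 to 1.64 in experimental and 1.11 to 1.42 in intervention libraries, against 0.808 to 0.857 in control libraries. In all of these the experimental and intervention libraries lay apart from the control libraries, while experimental and intervention libraries overlapped. Sod1 to Gpx8 was 1.68 to 2.10 in experimental, 1.38 to 1.65 in intervention and 0.573 to 0.611 in control libraries, and here all 3 groups lay apart. These ratios were chosen after the values were seen and are given with no test. An exact permutation test of 3 against 3 libraries could not go below p = 0.1. No ratio to the peroxiredoxins, which also remove hydrogen peroxide, was taken. For experimental minus control, Prdx6 and Prdx1 had larger log2 differences (1.92 and 1.19) than Sod1 (0.81), while 3 of the 6 peroxiredoxins were lower.

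**Figure D3:**
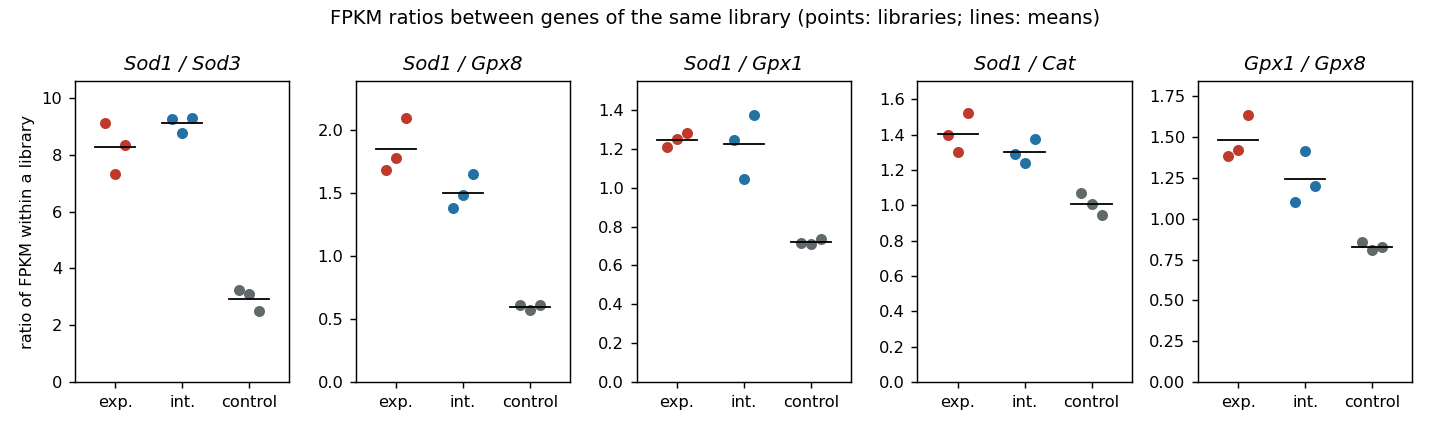
Ratios of FPKM between pairs of the genes within each library, from 0 on each axis, with experimental (exp.), intervention (int.) and control libraries from left to right; points are libraries and lines are means. The control libraries lie below the others in all 5 panels, for example at 2.48 to 3.24 in Sod1 to Sod3.

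Genes that equip these enzymes were followed as lists by function, described by counts over the tested genes. Of all tested entries, 23.5% were higher and 50.5% lower in experimental than in control cells, with a median difference of -0.21 log2 units. For the metals of superoxide dismutase, 2 of 6 tested genes were higher and 1 lower in experimental than in control cells (median 0.052 log2 units). The gene that was lower was Ccs, the copper chaperone that loads Sod1, at 7.49 ± 0.66 FPKM in experimental and 11.3 ± 0.576 FPKM in control cells (log2 difference -0.53, limma adjusted p = 0.000325). Its direction was thus opposite to that of Sod1, also after each scaling tried. Slc39a14, a zinc and manganese importer, was higher (3.84 ± 0.0971 FPKM in experimental and 2.69 ± 0.163 FPKM in control cells), as was Slc31a1, the copper importer (29.7 ± 0.426 and 26.5 ± 0.694 FPKM), except when scaled to TPM (adjusted p = 0.0552). Atp7a, a copper pump, was not called (difference 0.063, limma adjusted p = 0.534). After median-ratio scaling 5 of the 6, Atp7a among them, were higher and 1 lower. The counts were 3 and 1 after quantile normalization, but 1 and 1 scaled to TPM.

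For the supply and recycling of glutathione, 4 of 6 tested genes were higher and 1 lower (median 1.18 log2 units). Gclm and Gclc, the subunits of the enzyme that starts glutathione synthesis, reached 65.0 ± 1.077 and 68.7 ± 4.45 FPKM in experimental cells, against 5.01 ± 0.355 and 12.2 ± 0.352 FPKM in control cells. Gsr, glutathione reductase, was at 46.5 ± 0.922 FPKM in experimental and 15.1 ± 1.01 FPKM in control cells (limma adjusted p = 3.69e-08). The gene that was lower, Slc7a11, which imports cystine, was at 1.70 ± 0.0458 FPKM in experimental and 22.5 ± 3.22 FPKM in control cells. Gpx4, which reduces lipid peroxides in membranes and was the tested member of the other glutathione peroxidases, was at 63.2 ± 4.33 FPKM in experimental and 90.1 ± 9.42 FPKM in control cells, with its values wholly below (log2 difference -0.50, limma adjusted p = 0.0005). None of the tested glutathione peroxidase mRNAs was thus called higher against control in the values as deposited, and of the 3 scalings tried, Gpx1 was called higher after median-ratio scaling but not after quantile normalization or scaled to TPM.

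Gpx1, Gpx3 and Gpx4 need selenocysteine, and of 9 tested genes for its insertion and for selenium transport 1 was higher and 6 lower (median -0.33 log2 units), or 1 and 4 after median-ratio scaling. Selenop, the secreted selenium carrier, was at 4.62 ± 0.689 FPKM in experimental and 13.7 ± 1.28 FPKM in control cells, and Eefsec, the elongation factor for selenocysteine, at 5.40 ± 0.335 and 11.7 ± 0.45 FPKM (limma adjusted p at most 8.92e-07). Trnau1ap, which binds the selenocysteine tRNA, and Sephs2, which makes the selenium donor, were lower too (log2 differences -0.68 and -0.56). Of 13 other selenoprotein genes 4 were higher and 8 lower (median -0.18), with Txnrd1, cytosolic thioredoxin reductase, at 216 ± 13.1 FPKM in experimental and 26.9 ± 1.43 FPKM in control cells. Txnrd2, its mitochondrial counterpart, was at 1.66 ± 0.0964 and 3.67 ± 0.283 FPKM in the same order, and Selenon and Selenom, selenoproteins of the endoplasmic reticulum, had log2 differences of -1.51 and -0.74.

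Of the 6 peroxiredoxins, which also remove hydrogen peroxide, 2 were higher and 3 lower (median -0.19 log2 units), or 2 and 0 after median-ratio scaling and 2 and 3 after quantile normalization and scaled to TPM. Prdx6 was at 77.9 ± 3.22 FPKM in experimental and 19.9 ± 1.20 FPKM in control cells, and Prdx1 at 374 ± 9.77 and 164 ± 18.9 FPKM. Prdx3, the mitochondrial form, and Prdx2 had log2 differences of -0.34 and -0.29, which after median-ratio scaling were -0.096 and -0.049 and no longer called (adjusted p = 0.193 and 0.493). Of 5 tested sources of superoxide or peroxide 1 was higher and 4 lower (median -0.29), or 1 and 1 after median-ratio scaling. Acox3, a peroxisomal oxidase, was at 0.947 ± 0.125 FPKM in experimental and 2.23 ± 0.0529 FPKM in control cells, and Maoa, a mitochondrial amine oxidase, at 41.5 ± 2.56 and 32.7 ± 1.23 FPKM. Xdh, xanthine dehydrogenase, had a log2 difference of -0.29, a call that median-ratio scaling ended (adjusted p = 0.523).

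Catalase is imported into peroxisomes, and of 14 tested peroxisome import and growth genes 3 were higher and 9 lower (median -0.51 log2 units, beside -0.21 for all entries), or 4 and 9 after median-ratio scaling. Pex19, which delivers membrane proteins, was at 10.3 ± 1.102 FPKM in experimental and 18.8 ± 1.21 FPKM in control cells. Pex6 and Pex11a had log2 differences of -0.63 and -0.79 (limma adjusted p at most 3.68e-05). Pex5, the import receptor that carries catalase, was not called, at 14.2 ± 0.765 FPKM in experimental and 14.4 ± 0.365 FPKM in control cells (adjusted p = 0.836), but was called higher after median-ratio scaling (0.22, adjusted p = 0.00291). Of 10 tested genes of oxidative folding in the endoplasmic reticulum, 4 were higher and 2 lower (median 0.069). The enzymes of Gpx7 and Gpx8 act in this compartment. The oxidase Ero1l, a source of hydrogen peroxide there, was at 53.2 ± 2.83 FPKM in experimental and 24.4 ± 1.90 FPKM in control cells (log2 difference 1.09, adjusted p = 6.53e-07), and Pdia3 and Pdia4, disulfide isomerases, had log2 differences of 0.42 and 0.47. Vkorc1, vitamin K epoxide reductase, was lower (-0.72). The counts of these 10 genes were 6 and 1 after median-ratio scaling, 6 and 2 after quantile normalization and 4 and 2 scaled to TPM. P4hb, not called as deposited, was called higher after median-ratio scaling (0.27, limma adjusted p = 0.000454). After quantile normalization P4hb was called lower (-0.20, limma adjusted p = 0.000374).

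Of 12 tested transcription regulators and deacetylases with known links to these genes 5 were higher and 4 lower (median -0.012 log2 units), or 7 and 3 after median-ratio scaling. Nfe2l2, which encodes NRF2, was at 41.8 ± 1.02 FPKM in experimental and 25.6 ± 0.705 FPKM in control cells, and Trp53, which encodes p53, at 87.0 ± 0.643 and 53.2 ± 1.63 FPKM. Ppargc1a, a coactivator that raises Sod2 and Cat in other settings, was at 5.66 ± 0.205 FPKM in experimental and 10.8 ± 0.391 FPKM in control cells, and Foxo4 at 6.31 ± 0.605 and 15.5 ± 0.879 FPKM (limma adjusted p at most 2.78e-06).

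**Figure D4:**
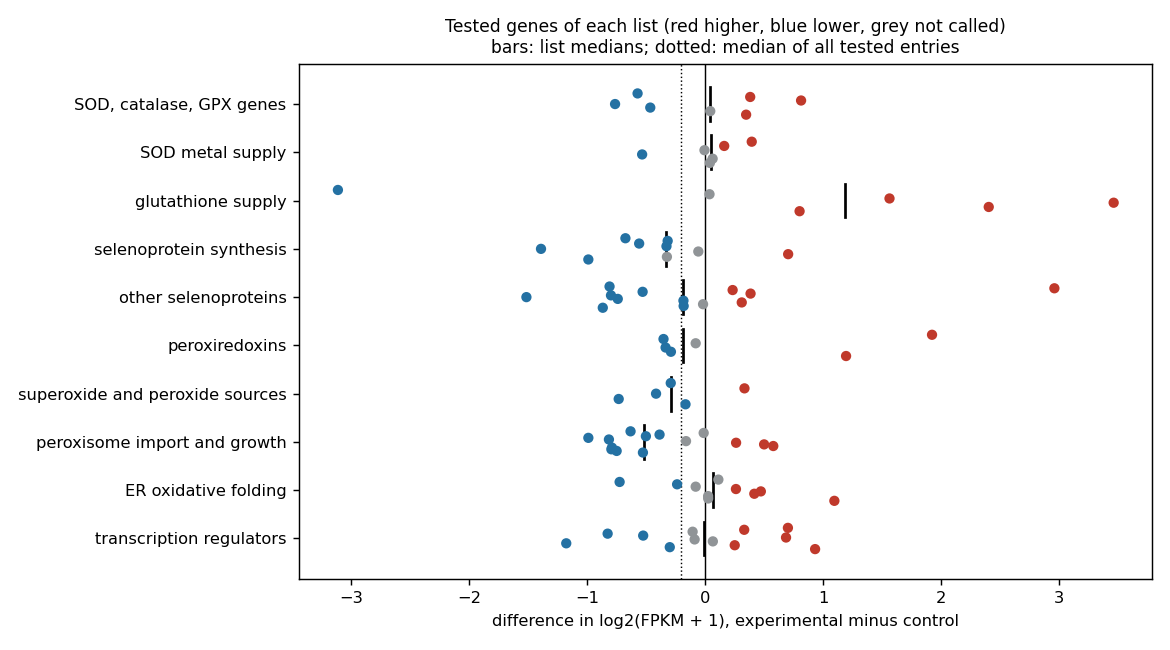
Differences in log2(FPKM + 1), experimental minus control, of the tested genes of each list; points are genes (red higher, blue lower, grey not called), bars are list medians and the dotted line is the median of all tested entries (-0.21). Of the lists drawn, glutathione supply has the highest median (1.18) and peroxisome genes the lowest (-0.51).

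Slc7a11 stood out between intervention and experimental cells, at 27.7 ± 2.02 FPKM in intervention and 1.70 ± 0.0458 FPKM in experimental cells (log2 difference 3.41, limma adjusted p = 8.37e-08). It was the 1 glutathione supply gene that was higher, and 2 of the 6 were lower, among them Gclc at 58.2 ± 2.23 FPKM in intervention and 68.7 ± 4.45 FPKM in experimental cells. The list counts of this comparison stand beside 15.9% higher and 3.6% lower of all tested entries, with a median difference of 0.10 log2 units. All calls fell from 2337 to 1, 4 and 6 without experimental replicate 1, experimental replicate 3 and intervention replicate 1, which leaves room for few of the list calls. Of 14 peroxisome genes 6 were higher and 0 lower, or 3 and 0 after median-ratio scaling. Of 6 peroxiredoxins 2 were higher and 1 lower, or 0 and 1 after median-ratio scaling. Prdx5, a peroxiredoxin of several compartments, was at 23.5 ± 1.83 FPKM in intervention and 18.6 ± 1.16 FPKM in experimental cells, Prdx3 at 44.9 ± 2.27 and 37.5 ± 1.48 FPKM, and Prdx6, the lower one, at 64.9 ± 4.95 and 77.9 ± 3.22 FPKM. Of 9 selenocysteine genes 2, Sephs2 and Eefsec, were higher, or 0 after median-ratio scaling. Among other selenoproteins 3 of 13 were higher and 1 lower (1 and 1 after median-ratio scaling), among regulators 3 of 12 higher and 1 lower (1 and 2), among oxidative folding genes 0 of 10 higher and 1 lower (0 and 1), and among sources 1 of 5 higher and 0 lower (0 and 0). Of the 6 metal supply genes limma called 0, with 4 at an unadjusted p under 0.05, and 2 lower after median-ratio scaling. Ccs was at 9.03 ± 1.20 FPKM in intervention and 7.49 ± 0.661 FPKM in experimental cells (limma adjusted p = 0.0847). Gpx4 was at 76.2 ± 7.05 FPKM in intervention and 63.2 ± 4.33 FPKM in experimental cells, not called (limma adjusted p = 0.0621).

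Between intervention and control cells, 5 of 6 glutathione supply genes were higher and 0 lower, while 3 of 14 peroxisome genes were higher and 9 lower (4 and 6 after median-ratio scaling). Of all tested entries, 24.1% were higher and 41.1% lower in this comparison. Ccs was at 9.03 ± 1.20 FPKM in intervention and 11.3 ± 0.576 FPKM in control cells (log2 difference -0.30, limma adjusted p = 0.0137), but not called after median-ratio scaling (adjusted p = 0.099) or quantile normalization (0.0542). Gpx4 was lower, at 76.2 ± 7.05 FPKM in intervention and 90.1 ± 9.42 FPKM in control cells (limma adjusted p = 0.0383), except after median-ratio scaling (0.338).

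The genes whose log2(FPKM + 1) followed each member most closely over the 9 libraries are given as a description, with Pearson's r over 9 libraries that form 3 groups, so that a high r mostly repeats the group means. For Sod1 they were Gpr137b-ps (0.996) and Cdc34 (0.992), for Sod2 Gart (0.993) and Slc48a1 (0.992), and for Cat Selenos (0.988) and Psmd7 (0.987). For Sod3 they were Prkd1 (0.982) and Tmem63a (0.978), and for Gpx8 Atp6v1g1 (0.993) and Prkag1 (0.992). Gpx1 and Gpx7, whose groups differed least or were noisiest, had weaker partners, Fbxo9 (0.922) and Pdcd10 (0.916) for Gpx1 and Oaz1-ps (0.927) and Ddost (0.920) for Gpx7.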

How the data were processed

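Per the labels' protocols, HT22 RNA was extracted with the RNeasy plus mini system and turned into 9 libraries with SMARTER mRNA-Seq reagents; the series' design text names the NovaSeq as sequencer. What the authors deposited is an FPKM table of 29756 entries. The build is mm10 per the submitters' processing notes; how reads were aligned and counted, with which annotation and strand setting, is not given in the sources used here. Where a symbol occurs more than once (118 entries), it was given to the entry of highest mean.

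Entries with at least 1 FPKM in at least 3 of 9 libraries (11974) were tested as log2(FPKM + 1), which understates changes of genes with low FPKM, with limma 3.58.1 in R 4.3.3: all libraries in 1 fit, eBayes with a mean-variance trend, no covariate, 2-sided p-values adjusted over all tested entries by the Benjamini-Hochberg method. The scripts were tested on simulated data. Depth is unknown, so no count test was run and precision comes from the spread between replicates. Replicate numbers were not used to pair libraries.

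All 8 members were named whatever they showed, as were up to 4 genes a list with the smallest adjusted p for experimental against control and, for each tested member, the 2 genes of highest Pearson r with a mean of at least 5 FPKM and no predicted-gene symbol. Atp7a, Pex5, Prdx5 and the ratios were picked with their values known. Members, lists and tests were chosen with earlier results of these data known. Ero1l and Ero1lb were matched to list names through RefSeq synonyms. Gene positions are from GENCODE M21; copies were searched with blastn 2.17.0 (at least 90% identity over 200 bases); in Sod2 only stretches of 200 to 210 bases matched other genes. Gpx2, Gpx5, Nox3, Cybb, Dao, Gata1 and Adgre1 are not analysed here. Some genes that the naming rule picked are not reported here. Alternatives were another pseudocount, other filters, scalings and fits, and leaving out each library.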

Additional observations from a re-analysis of the deposited data

How the results depend on the processing

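The calls of Sod1, Sod2, Sod3, Cat and Gpx8 against control, in experimental and in intervention cells, kept direction and side of the threshold in all 180 results (5 genes in 2 comparisons, each under every alternative setting run) (limma adjusted p up to 0.0392). The count of members called ranged from 5 to 6 for experimental against control and from 5 to 6 for intervention against control over the 9 fits that left out a library. For intervention against experimental it ranged from 0 to 2, and it was 0 with no filter on low values, with median-ratio scaling and with quantile normalization, where limma gave 2, 1 and 1 members an unadjusted p under 0.05. Values that changed sign were all uncalled. Gpx1, experimental minus control, was -0.0201 scaled to TPM and ranged from -0.0288 (without control replicate 3) to 0.0953 over the fits that left out a library. For intervention minus experimental, Sod1 was -0.0050 and Sod2 -0.0243 with median-ratio scaling and Sod2 was -0.0456 with quantile normalization. Leaving out a library gave -0.0139 (without experimental replicate 3) to 0.1765 for Gpx7 and -0.1457 to 0.0473 (without experimental replicate 2) for Sod3. The cause was not tested. Of all entries, leaving out a library gave 8314 to 8841 calls for experimental against control, 7169 to 7785 for intervention against control and 1 to 2571 for intervention against experimental (1, 4, 6 and 939 without experimental replicate 1, experimental replicate 3, intervention replicate 1 and intervention replicate 3). With a mean of at least 5 FPKM, which leaves fewer entries tested, calls numbered 5702 and 5129 against control. For intervention against experimental they numbered 358 with no filter, 1437 with median-ratio scaling, 1038 with quantile normalization and 1268 with the replicate block. Same-numbered libraries did not deviate together (correlations of -0.182 to 0.110, over 0.1 in 2 of 9 pairs, and 0 of the 9 libraries correlated best with their own number in both other groups), so the numbers were not taken to pair them. The block called 7 members for intervention against control, adding Gpx1 (adjusted p = 0.034) and Gpx7 (0.0284); it called 6 for experimental against control and 1 for intervention against experimental. Depth is unknown and Gpx7, near 1 FPKM, and Gpx3, near 0, are limited most.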
